A study of Arabidopsis thaliana with 4 samples.

Results

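The lipid transfer protein genes of *Arabidopsis thaliana* were followed in seedlings that lack factors of nonsense-mediated mRNA decay (NMD), the pathway that degrades mRNAs with a premature stop codon. The genes were chosen by a rule on their annotation, with earlier results of these data known. A gene was taken when its description in the deposited table holds the words lipid transfer protein, with a space or a hyphen, and was left out when the description also speaks of seed storage. This gave 16 genes of the 22409 loci in the table. They comprise 9 type I lipid transfer proteins (LTPs), a pair of LTP-like proteins that RefSeq names *XYP1* and *XYP2* (xylogen protein), and 5 glycolipid transfer proteins, which meet the wording but belong to another protein family. The rule left out 47 genes with both lipid transfer and seed storage wording.

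Type I LTPs are small secreted proteins of the cell wall, in which disulfide bonds between conserved cysteines hold a bundle of helices around a hydrophobic tunnel that can take up lipids. In Arabidopsis they are abundant in the epidermis and have been connected with the build-up of the cuticle, with growth of the pollen tube, and with responses to drought, cold, and pathogens. Glycolipid transfer proteins, in contrast, are cytosolic and move sphingolipids between membranes.

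The seedlings were Col-0 plants of 4 genotypes, *upf1-5*, *upf3-1*, the double mutant *upf1-5 upf3-1*, and wild type (WT). Both mutations are T-DNA insertions, each represented by 1 allele, and the double mutant was made by crossing, so no agent or other allele was involved. *UPF1* encodes an RNA helicase and *UPF3* its partner at exon junctions, both core factors of NMD. Plants grew on plates at 23°C under long days and were pooled at ZT16, and each genotype has 1 library, so no difference below has a replicate check. The deposited table calls 1 library NMD2, which was taken as the double mutant because the other names match WT and the single mutants.

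The labels name a kit for polyadenylated RNA and the methods one for total RNA without rRNA, and which was used was not tested. *UPF1* had 3.18 FPKM (a count of fragments scaled to transcript length and library size) in *upf1-5* and 8.27 in the double mutant, against 30.6 in *upf3-1* and 23.9 in WT. *UPF3* had 6.36 FPKM in *upf3-1* and 7.10 in the double mutant, against 33.7 in *upf1-5* and 20.8 in WT, so the library taken as the double mutant was low in both genes. The median ratio to WT over all loci lay between 0.997 and 1.01 in the mutants, whereas the summed FPKM of *upf1-5*, *upf3-1*, and the double mutant was 0.958, 0.766, and 0.745 of that of WT. The 4 leaf markers had a value in every library, with a sum of 23939, 14021, and 13036 FPKM in *upf1-5*, *upf3-1*, and the double mutant, against 26975 in WT. In such bulk samples, fewer cells of a type and less RNA per cell cannot be told apart.

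The coding sequences show what sets the LTPs apart from the glycolipid transfer proteins. All 9 type I LTPs and both LTP-like proteins carry the 8-cysteine motif, in which a cysteine pair is followed by a pair spaced by 1 residue, and 0 of the 5 glycolipid transfer proteins do. The type I LTPs are precursors of 115 to 123 residues, the xylogen-type proteins have 181 and 182 residues, and the glycolipid transfer proteins have 202 to 233 residues. Between the cysteine pair and the spaced pair lie 19 residues in all 9 type I LTPs and 12 in *XYP1* and *XYP2*. The coding stretch from the cysteine pair to the spaced pair is printed below for the 6 LTP genes whose values are described in most detail, from RefSeq (TAIR10.1), with the cysteine codons in capitals.
LTP3 (chr5:23929201-23929272, plus strand): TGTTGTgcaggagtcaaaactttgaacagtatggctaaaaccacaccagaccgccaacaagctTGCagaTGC
LTP8 (chr2:7980843-7980914, plus strand): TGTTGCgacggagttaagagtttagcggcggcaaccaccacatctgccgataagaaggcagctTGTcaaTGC
LTP10 (chr5:337381-337452, plus strand): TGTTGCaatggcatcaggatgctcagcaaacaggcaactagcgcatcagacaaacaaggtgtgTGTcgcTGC
LTP2 (chr2:16128637-16128708, plus strand): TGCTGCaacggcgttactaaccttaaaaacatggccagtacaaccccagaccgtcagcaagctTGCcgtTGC
LTP1 (chr2:16130574-16130645, plus strand): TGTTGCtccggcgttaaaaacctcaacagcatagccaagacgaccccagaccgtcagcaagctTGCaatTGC
LTP5 (chr3:19138897-19138968, minus strand): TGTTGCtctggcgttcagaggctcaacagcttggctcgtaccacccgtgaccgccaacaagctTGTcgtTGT

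Over these 72 bases, *LTP2* shares 58 bases with its neighbour *LTP1*, *LTP3* shares 53, *LTP5* 52, *LTP8* 38, and *LTP10* 36. The genes that were high in every mutant (*LTP3*, *LTP8*, and *LTP10*) thus include both near and distant relatives of *LTP1*. Over whole proteins, identity among the type I members ran between 31.0% and 68.6%, with a median of 39.2%, and the most similar pair was *LTP1* and *LTP2*. The mRNAs of this pair share an identical run of 40 nt, and *LTP3* shares one of 44 nt with *LTP4*, a gene not analysed here whose protein is 83.9% identical. The authors ran TopHat and Cufflinks with default settings, and how reads that match both copies were divided was not analysed here, so these genes' values are less certain.

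In WT, transcripts of the family came mainly from *LTP1* and *LTP5*. *LTP1* (AT2G38540, chromosome 2, 16130290 to 16131240 in TAIR10.1) was at 1417 FPKM in WT, at or above 99.7% of all loci, and *LTP5* (AT3G51600, chromosome 3, 19138338 to 19139423) was at 1208 FPKM, at or above 99.6%. The lowest was *LTP11*, with 0.357 FPKM in WT. The plot of FPKM by library shows the wide range of levels within each library. In it, *LTP3*, *LTP6*, *LTP8*, *LTP10*, *XYP1*, and *AT4G39670* lie to the right of WT in every mutant. Of these, *LTP3* and *AT4G39670* were low in WT, whereas *LTP8* and *LTP10* were at or above 63.8% and 53.4% of all loci there.

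**Figure D1:**
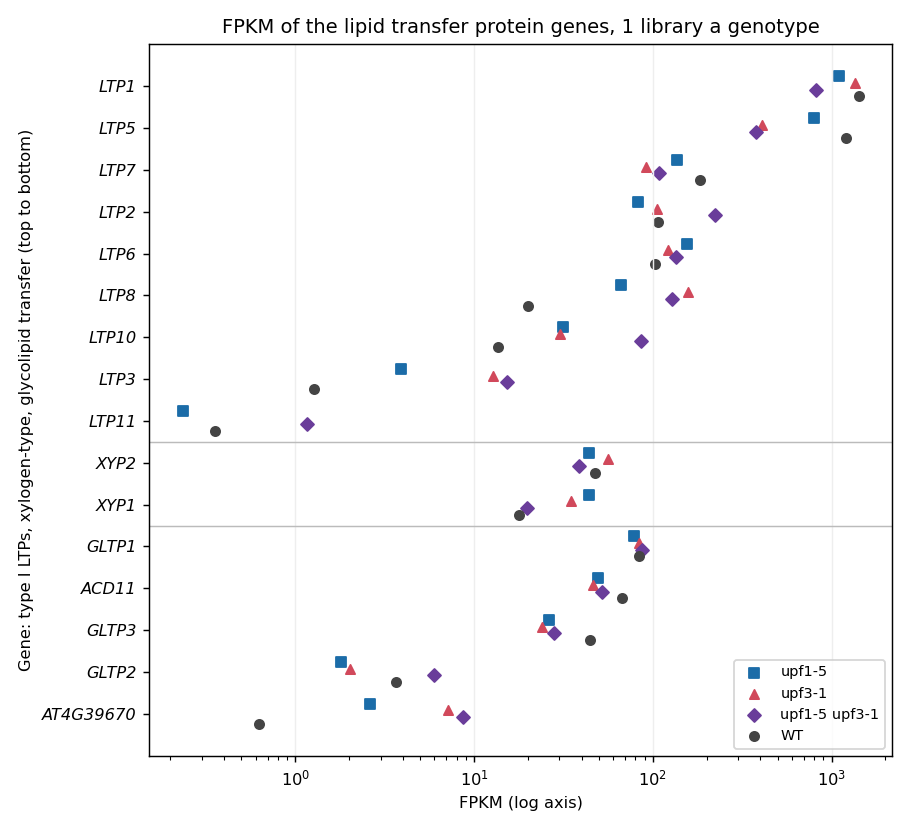
FPKM of the 16 genes on a log axis, 1 point for each library (squares *upf1-5*, triangles *upf3-1*, diamonds the double mutant, circles WT); no error can be drawn. *LTP3*, *LTP6*, *LTP8*, *LTP10*, *XYP1*, and *AT4G39670* have their lowest value in WT and lie to the right of it in all 3 mutants. *LTP11* has no value in *upf3-1*.

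A gene was counted as up-regulated or down-regulated at a fold of 2 or more with at least 1 FPKM in 1 of both libraries compared. The methods of the study give the same fold and FPKM but not in which library the FPKM must be reached, so this last point is a choice made here. In *upf1-5*, 5 of the 15 genes that met this FPKM limit with a value in both libraries were up-regulated, against 7.64% of all loci, and 1 of 15 was down-regulated, against 2.40%. In *upf3-1*, 4 of 15 were up-regulated, against 14.6% of all loci, and 1 of 15 was down-regulated, against 6.91%. In the double mutant, 6 of 16 were up-regulated, against 15.0% of all loci, and 1 of 16 was down-regulated, against 6.91%. The shares of up-regulated genes lay above those of all loci, and *LTP3*, *LTP8*, *LTP10*, and *AT4G39670* account for the count in *upf3-1* and are among those in the other mutants. The 3 comparisons share the WT library, so an accidental low value there would appear in all of them.

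The median of the family lay near WT, with genes on both sides of it. On the scale of log2(FPKM + 1), the median difference from WT over the 15 genes with a value in every library was -0.12 in *upf1-5*, -0.01 in *upf3-1* plants, and 0.15 in the double mutant. Over all 20048 loci with such values it was 0.0029, -0.01, and 0.0087 in the same mutants. Among the type I LTPs the median was 0.11, 0.11, and 0.71, and among the glycolipid transfer proteins -0.44, -0.52, and 0.05. Of the 15 genes, 6, 7, and 9 lay above WT in *upf1-5*, *upf3-1*, and the double mutant, and 9, 8, and 6 below it. Of the 20048 loci, 10105, 9867, and 10154 lay above WT in the same mutants, and 9930, 10166, and 9884 below it. A median near 0 thus does not mean that the single genes were near WT. Of the 16 genes, 7 were up-regulated in at least 1 mutant, 2 were down-regulated in at least 1, and 7 passed the threshold in none. The matching shares over all loci are not given here, so these counts only list the genes.

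**Figure D2:**
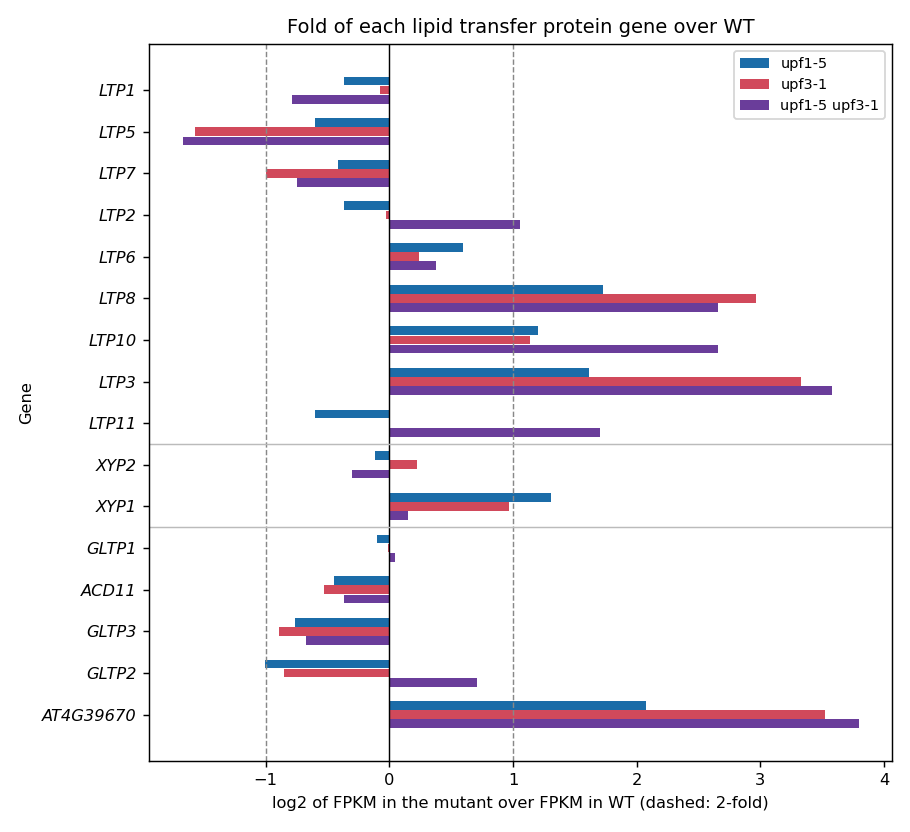
Log2 of the FPKM in each mutant over that in WT for the 16 genes, without a pseudocount; dashed lines mark a 2-fold difference. *LTP3*, *LTP8*, *LTP10*, and *AT4G39670* pass the right line in all 3 mutants, *LTP5* passes the left line in *upf3-1* and the double mutant, and *LTP7* ends at that line in *upf3-1*.

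*LTP3*, *LTP8*, and *LTP10* were the type I LTPs that passed the threshold in all 3 mutants. *LTP3* (AT5G59320, chromosome 5, 23928954 to 23929816) encodes an LTP known to be induced by abscisic acid and drought. It had 3.91 FPKM in *upf1-5*, 12.8 in *upf3-1* plants, and 15.2 in the double mutant, against 1.28 in WT, which is 3.06-, 10.04-, and 11.9-fold higher. The WT value lies near the lower limit of the threshold, at or above only 14.7% of all loci, so a small error in WT would move these folds most.

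*LTP8* (AT2G18370, chromosome 2, 7980532 to 7981868) had the highest level among the genes up-regulated in every mutant. It was at 66.7 FPKM in *upf1-5*, 157 in *upf3-1* plants, and 127 in the double mutant, against 20.1 in WT. The folds were 3.31, 7.79, and 6.32. Thus *upf3-1* was highest and *upf1-5* lowest among the mutants, and *LTP8* in *upf3-1* reached 11.6% of the FPKM of *LTP1* in that library, against 1.42% in WT.

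*LTP10* (AT5G01870, chromosome 5, 337128 to 337914) showed another order. It had 31.4 FPKM in *upf1-5*, 30.1 in *upf3-1* plants, and 86.1 in the double mutant, against 13.7 in WT. Both single mutants were close to each other, at 2.30- and 2.202-fold, and the double mutant was at 6.30-fold. RefSeq annotates *LTP8* and *LTP10* as predicted pathogenesis-related proteins of the same family as *LTP1*, and no further role is given there.

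The other gene above 2-fold in every mutant was a glycolipid transfer protein gene, *AT4G39670* (chromosome 4, 18409846 to 18411069), which is called only because 1 FPKM in 1 library was enough. Its 2.62 FPKM in *upf1-5*, 7.18 in *upf3-1* plants, and 8.65 in the double mutant stood against 0.624 in WT, or 4.20-, 11.5-, and 13.9-fold. As in *LTP3*, *upf1-5* lay between WT and the other mutants, and the WT level was low, at or above 8.97% of all loci.

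The upstream regions of these 4 genes are printed below, since the genes were up-regulated in the same libraries. Each run covers the 250 bases before the annotated transcript start in RefSeq (TAIR10.1), 5′ to 3′ on the gene's strand. Capitals mark ACGTG, the core of the element bound by abscisic acid response factors, and TATAAA, the core of the TATA box, each searched on both strands, where neither motif contains the other.
LTP3 (chr5:23928704-23928953, plus strand): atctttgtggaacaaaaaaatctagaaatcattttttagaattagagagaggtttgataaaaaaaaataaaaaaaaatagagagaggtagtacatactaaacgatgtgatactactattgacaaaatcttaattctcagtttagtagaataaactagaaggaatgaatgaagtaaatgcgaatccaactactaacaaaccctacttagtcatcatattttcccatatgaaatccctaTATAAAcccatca
LTP8 (chr2:7980282-7980531, plus strand): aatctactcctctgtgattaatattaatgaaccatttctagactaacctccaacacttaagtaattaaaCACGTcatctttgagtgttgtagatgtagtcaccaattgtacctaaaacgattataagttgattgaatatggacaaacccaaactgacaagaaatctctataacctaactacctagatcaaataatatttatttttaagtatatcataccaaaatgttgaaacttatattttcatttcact
LTP10 (chr5:336878-337127, plus strand): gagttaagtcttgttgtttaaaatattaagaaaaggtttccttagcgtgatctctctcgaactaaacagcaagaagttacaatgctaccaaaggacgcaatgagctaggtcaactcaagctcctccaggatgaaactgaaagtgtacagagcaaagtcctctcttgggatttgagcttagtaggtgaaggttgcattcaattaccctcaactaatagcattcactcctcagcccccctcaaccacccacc
AT4G39670 (chr4:18409596-18409845, plus strand): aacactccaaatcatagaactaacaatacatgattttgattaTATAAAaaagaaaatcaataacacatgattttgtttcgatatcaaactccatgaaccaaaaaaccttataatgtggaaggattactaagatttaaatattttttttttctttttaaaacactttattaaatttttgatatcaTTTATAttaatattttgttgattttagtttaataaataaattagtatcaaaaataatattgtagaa

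*LTP8* holds 1 ACGTG match, whose first base lies 181 bases before the start, and *LTP3*, *LTP10*, and *AT4G39670* hold 0. A TATAAA match begins 13 bases before the start of *LTP3*, and *AT4G39670* holds 2 such matches, at 208 and 66 bases. The only other ACGTG match in the family was that of *LTP2*, giving 2 of 16 windows, against 24.3% of 20502 windows of the same length. TATAAA occurred in 7 of 16, against 46.8%. Neither string occurs in all 4 windows, which describes these letters only and not the binding of any factor.

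*LTP2* and *LTP11* passed the threshold against WT in the double mutant. *LTP2* passed it in neither single mutant, whereas *LTP11* could not be counted there. *LTP2* (AT2G38530, chromosome 2, 16128176 to 16129399) acts in the cuticle of the hypocotyl. It had 82.7 FPKM in *upf1-5*, 105 in *upf3-1* plants, and 222 in the double mutant, against 107 in WT. Both single mutants were thus at or below WT, with folds of 0.775 and 0.983, and the double mutant was 2.08-fold higher.

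*LTP2* lies 890 bases before *LTP1* on the same strand, and the 2 neighbours differed. *LTP1*, whose protein was located to the epidermal cell wall, had 1102 FPKM in *upf1-5*, 1348 in *upf3-1* plants, and 823 in the double mutant, against 1417 in WT. Its folds of 0.777, 0.952, and 0.581 stayed within the threshold. Expressed as a share of *LTP1*, *LTP2* was at 26.9% in the double mutant, 7.51% in *upf1-5*, and 7.78% in *upf3-1*, against 7.53% in WT.

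*LTP11* (AT4G33355, chromosome 4, 16066987 to 16067820) had 0.235 FPKM in *upf1-5* and 1.16 in the double mutant, against 0.357 in WT, and the table gives no value in *upf3-1*. In *upf1-5* neither library reached 1 FPKM. The fold of 3.26 in the double mutant rests on values near or below 1 FPKM in both libraries.

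*LTP5* was the only type I LTP that was down-regulated in any mutant. The gene is known for its function in growth of the pollen tube and is also transcribed in seedlings. It had 798 FPKM in *upf1-5*, 406 in *upf3-1* plants, and 380 in the double mutant, against 1208 in WT. WT was 2.98-fold above *upf3-1* and 3.18-fold above the double mutant, and *upf1-5* was at 0.661 of WT, within the threshold. In FPKM this was the largest difference in the family.

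*LTP7* (AT2G15050) was also highest in WT, with 137 FPKM in *upf1-5*, 91.3 in *upf3-1* plants, and 109 in the double mutant, against 183 in WT. Its fold in *upf3-1* was 0.5001, which at the rounding of the table lies at the threshold itself. *LTP6* (AT3G08770) was above WT in every mutant but within the threshold, with 156, 122, and 134 FPKM in *upf1-5*, *upf3-1*, and the double mutant, against 103 in WT.

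The sum over the family was lower in the mutants although more genes were up-regulated than down-regulated. It was 0.791, 0.761, and 0.644 of WT in *upf1-5*, *upf3-1*, and the double mutant. The sum over all loci was 0.958, 0.766, and 0.745 of WT, so in *upf3-1* both were lower to about the same extent. The 16 genes summed to 2624 FPKM in *upf1-5*, 2525 in *upf3-1* plants, and 2136 in the double mutant, against 3318 in WT. As a share of the summed FPKM of all loci these were 0.263%, 0.317%, and 0.276%, against 0.319% in WT. *LTP1* and *LTP5* held 72.4%, 69.5%, and 56.3% of the family's sum in the mutants, against 79.1% in WT. Without these genes, the sum was 724, 771, and 934 FPKM in the mutants, against 693 in WT, so all 3 mutants then lay above WT.

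**Figure D3:**
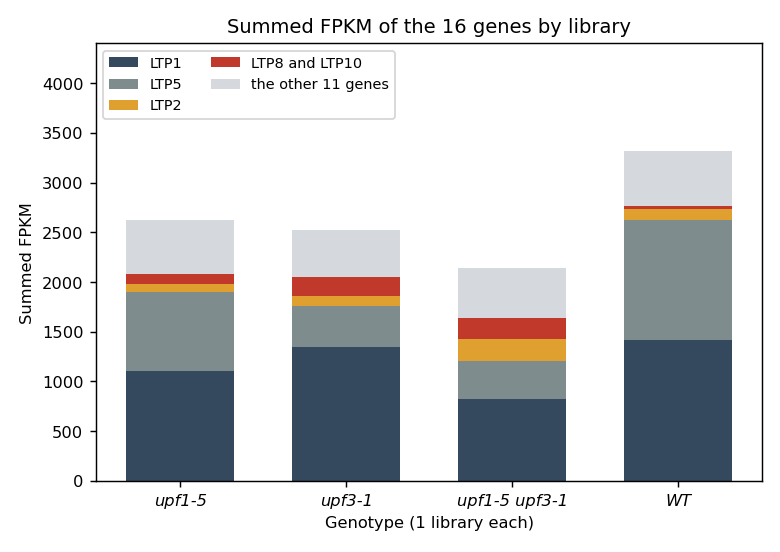
Stacked bars of the summed FPKM of the 16 genes in each library, from 0, with *LTP1* at the bottom and then *LTP5*, *LTP2*, *LTP8* with *LTP10*, and the other 11 genes. *LTP8* and *LTP10* together hold 3.74%, 7.40%, and 9.99% of the bar in *upf1-5*, *upf3-1*, and the double mutant, against 1.02% in WT.

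The LTP-like genes behaved differently from each other. *XYP1* (AT5G64080, chromosome 5, 25645209 to 25646845) is related to xylogen, a proteoglycan-like factor of xylem differentiation. It had 43.9 FPKM in *upf1-5*, 34.7 in *upf3-1* plants, and 19.8 in the double mutant, against 17.8 in WT. It was 2.47-fold higher in *upf1-5* and 1.95-fold higher in *upf3-1*, but 1.11-fold in the double mutant. *XYP2* (AT2G13820), whose protein is 49.2% identical, stayed between 38.7 and 55.8 FPKM in all mutants, against 47.8 in WT.

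Among the other glycolipid transfer protein genes, *GLTP1* hardly varied, with 78.4, 83.2, and 86.7 FPKM in *upf1-5*, *upf3-1*, and the double mutant, against 84.0 in WT. *ACD11*, whose loss causes accelerated cell death and which transfers ceramide-1-phosphate, had 49.1, 46.4, and 51.9 FPKM in these mutants, against 66.9 in WT. *GLTP3* had 26.3, 24.1, and 27.9 FPKM in these mutants, against 44.7 in WT. Both *ACD11* and *GLTP3* were thus below WT in every mutant, and none of these differences reached 2-fold.

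*GLTP2* (AT1G21360) had 1.81 FPKM in *upf1-5*, 2.01 in *upf3-1* plants, and 5.94 in the double mutant, against 3.64 in WT. The fold of 0.498 in *upf1-5* lies just past the threshold and is that mutant's only down-regulated gene of the family. The double mutant, in contrast, lay above WT at 1.63-fold.

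The double mutant was next compared with each single mutant, which asks what the second mutation adds. Compared with *upf1-5*, 6 of 16 genes were up-regulated in the double mutant, against 9.64% of all loci, and 2 of 16 were down-regulated, against 4.47%. Compared with *upf3-1*, 3 of 15 were up-regulated, against 6.67% of all loci, and 0 of 15 were down-regulated, against 4.69%. These comparisons share the double mutant library.

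*LTP2*, *LTP10*, and *GLTP2* were the 3 genes above both single mutants by the threshold. *LTP2* was 2.68-fold above *upf1-5* and 2.11-fold above *upf3-1*, *LTP10* 2.74- and 2.86-fold, and *GLTP2* 3.27- and 2.95-fold. *LTP3* was 3.89-fold above *upf1-5* but 1.19-fold above *upf3-1*, and *AT4G39670* was 3.30- and 1.21-fold, so in these genes the double mutant resembled *upf3-1* in level. *LTP11* was 4.95-fold above *upf1-5*.

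*LTP8* was 1.91-fold above *upf1-5* and at 0.812 of *upf3-1*, within the threshold on both sides. *LTP5* was at 0.476 of *upf1-5* and 0.937 of *upf3-1*, again next to *upf3-1*. *XYP1* in the double mutant was at 0.451 of *upf1-5* and 0.570 of *upf3-1*, and near WT. *LTP1*, *LTP5*, and *XYP2* were also lower in the double mutant than in both single mutants, and unlike *XYP1* they were below WT there. Of the 16 genes, 7 had their highest FPKM in the double mutant, 2 in *upf1-5*, and 2 in *upf3-1*, against 5 in WT. How all loci divide in this way is not given here, so this order is a description of the genes only.

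As the mutants lack NMD factors, the gene models were searched for features that NMD may recognise. An exon junction lying over 50 nt behind the stop codon occurred in a model of 1 of the 16 genes (*GLTP2*), against 9.37% of 20503 genes of the table. A 3′-UTR of at least 350 nt occurred in 5 (*LTP2*, *LTP7*, *LTP8*, *XYP2*, and *GLTP2*), or 31.2%, against 33.1% of all. An upstream reading frame that is 35 codons or longer occurred in 4 (*XYP1*, *GLTP2*, *GLTP3*, and *ACD11*), or 25.0%, against 17.6%.

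Of the genes up-regulated in every mutant, *LTP3*, *LTP10*, and *AT4G39670* have none of these features, and *LTP8* has a 3′-UTR of 393 nt. In 7 of the 9 type I LTPs the only intron of the longest coding model lies 10 nt before the stop codon, so the junction precedes the stop. Which model was transcribed was not analysed here.

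Lists of the cuticle and suberin pathways, to whose lipids LTPs have been connected, were read beside the family. These lists, like the marker lists, were chosen with earlier results of these data known. Suberin is the lipid barrier of root endodermis and periderm, and of its 12 genes 5 of 11 that met the FPKM limit were up-regulated in *upf1-5*, 9 of 12 in *upf3-1* plants, and 7 of 11 in the double mutant, with 0 down-regulated, against the shares of all loci given above, 7.64%, 14.6%, and 15.0%. The median difference on the log2(FPKM + 1) scale was 0.41, 1.22, and 1.09 in the same mutants. *CYP86A1*, a fatty acid hydroxylase of suberin synthesis, had 13.2, 27.0, and 20.8 FPKM in these mutants, against 5.64 in WT. *FAR5*, which makes fatty alcohols of suberin, had 9.30, 21.8, and 13.5 FPKM, against 3.44 in WT. Both showed the order of *LTP8*, with *upf3-1* highest, as did *ASFT*, *CYP86B1*, *FAR4*, *ABCG2*, *ABCG6*, and *KCS2*. In contrast, *GPAT5*, *FAR1*, and *ABCG20* were highest in the double mutant. *KCS20*, the most abundant gene of the list, was below WT in every mutant, with 76.6, 56.3, and 58.0 FPKM, against 95.7 in WT.

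The wax and cutin lists of the aerial cuticle did not share this. Of 11 wax genes that met the limit, 0 were up-regulated in *upf1-5*, 1 in *upf3-1* plants, and 1 in the double mutant, and 0, 0, and 1 were down-regulated, with medians of -0.22, -0.35, and -0.53. The shares of all loci down-regulated were 2.40%, 6.91%, and 6.91% in these mutants. *KCS6*, which elongates the fatty acids of wax, had 184, 144, and 141 FPKM in the mutants, against 263 in WT. Of 11 cutin genes, 0, 2, and 1 were up-regulated and 0, 2, and 1 down-regulated, with medians of -0.34, -0.12, and -0.29. Of 6 regulators that met it, 0, 1, and 0 were up-regulated. The gene called in *upf3-1* was *MYB41*, with 0.584, 2.29, and 0.926 FPKM in the mutants, against 1.09 in WT. *MYB96*, an abscisic acid-related activator of wax genes and *LTP3*, had 12.1, 11.7, and 11.8 FPKM, against 12.6 in WT.

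**Figure D4:**
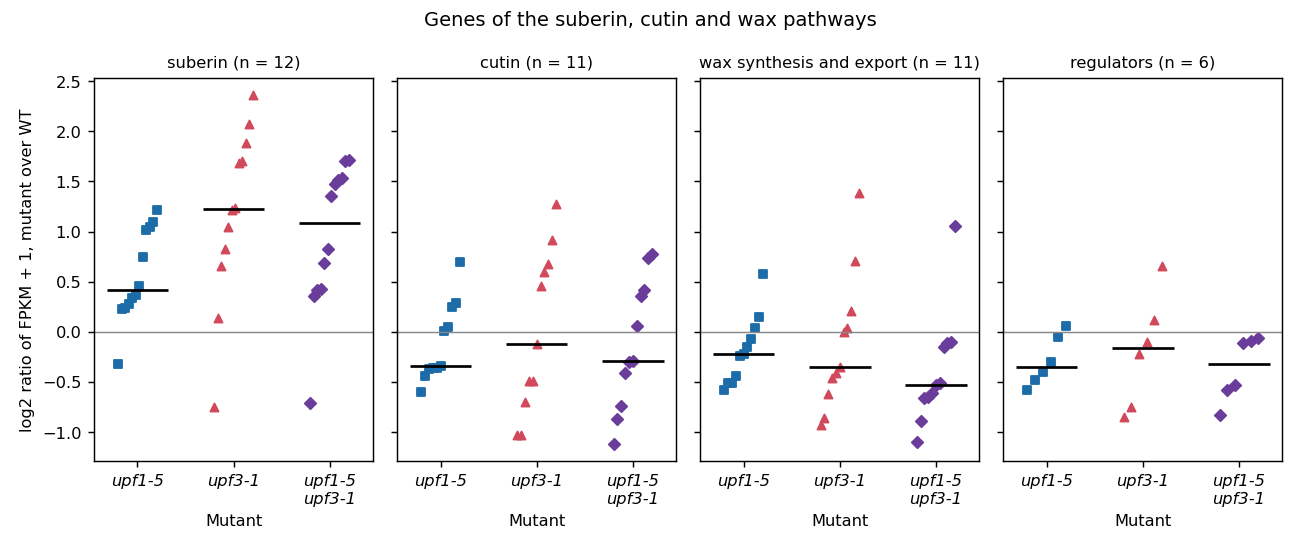
Log2 ratio of FPKM + 1 in each mutant over WT for the genes of 4 lists with a value in every library and 1 FPKM in at least 1; a point is a gene and the bar is the median. The suberin medians lie at 0.41, 1.22, and 1.09 in *upf1-5*, *upf3-1*, and the double mutant, and those of cutin, wax, and regulators lie below 0 in all 3.

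Of 6 root markers, 2 (*RHD6* and *PLT1*) were up-regulated in *upf1-5*, 4 in *upf3-1* plants, and 4 in the double mutant, against 7.64%, 14.6%, and 15.0% of all loci, with 0 down-regulated. The sum of the list was 37.6, 46.1, and 56.4 FPKM in these mutants, against 34.6 in WT. The root hair regulator *RHD6* had 2.11, 6.58, and 10.3 FPKM in the mutants, against 0.454 in WT, whereas the ground tissue regulator *SCR* was below WT in every mutant, with 20.2, 11.5, and 15.7 FPKM, against 22.4. The 4 epidermis markers passed the threshold in none of the mutants, and their sum was 432, 328, and 404 FPKM in the mutants, against 519 in WT. Of the 4 leaf markers, 0 were down-regulated in *upf1-5*, 2 in *upf3-1* plants, and 1 in the double mutant, against 2.40%, 6.91%, and 6.91% of all loci. The part of tissue make-up in the LTP values was not tested.

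Of the 5 seed markers, 1, 3, and 3 had a value in *upf1-5*, *upf3-1*, and the double mutant, against 1 in WT, with sums of 0.0805, 6.58, and 25.8 FPKM, against 0.265 in WT. The seed storage protein gene *CRU1* had 3.86 FPKM in *upf3-1* and 13.2 in the double mutant and no value in *upf1-5* or WT. *CRU3*, another such gene, had 0.0805, 0.903, and 8.94 FPKM in these mutants, against 0.265 in WT, and *SESA1* and *SESA2* had no value in any library. The 5 flower markers, of which 3 had a value in each library, summed to 6.17, 13.8, and 1.63 FPKM in these mutants, against 14.9 in WT. Their part was not tested either.

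The genes left out for their seed storage wording are relatives by the same cysteine motif, and are given for comparison only. Of those that met the FPKM limit, 5 of 41 were up-regulated in *upf1-5*, 15 of 41 in *upf3-1* plants, and 13 of 40 in the double mutant, against 7.64%, 14.6%, and 15.0% of all loci. In the same mutants 1 of 41, 11 of 41, and 9 of 40 were down-regulated, which is 2.44%, 26.8%, and 22.5% of them, against 2.40%, 6.91%, and 6.91% of all loci. Their median on the log2(FPKM + 1) scale was 0.51, 0.44, and 0.43 in these mutants. Among the 16 genes chosen here, 1 was down-regulated in each mutant, which in *upf1-5* was the glycolipid transfer protein gene *GLTP2*. Of the type I and LTP-like genes that met the limit, 0 of 10, 1 of 10, and 1 of 11 were down-regulated in these mutants.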

How the data were processed

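Reads of the 4 libraries, 1 for each genotype, were processed by the authors with TopHat and Cufflinks on TAIR10. The deposited table of 127437 lines gives, for each pair of libraries, the FPKM of both added together. The deposited fold divides the larger FPKM of the pair by the smaller. A further deposited column holds the q-value of the authors' test for each pair and was not used, nor was any of the authors' calls.

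Each library's FPKM was recovered from pair sum, fold, and direction, as a mean over its pairs weighted by rounding error. The 60 member values of 1 FPKM or more had estimates within 0.363% of each other, and the step was tested on simulated data. Pairs with a library at an FPKM of 0 seem to be left out. The depth of the libraries is unknown, no interval can be given, and low FPKM values are the least certain.

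Folds carry no pseudocount, whereas medians use log2(FPKM + 1) over loci with a value in every library and 1 FPKM in at least 1. No p-value was computed, because no genotype has a replicate. Named are the 12 genes highest in WT, those past the threshold in all 3 mutants, the 8 largest folds in each direction in the double mutant, LTP genes with a number, and all glycolipid transfer proteins. The members and lists were chosen with earlier results of these data known. Alternatives were other folds, filters, scalings, pseudocounts, and memberships. Gene models and sequences came from RefSeq TAIR10.1, taking the model of greatest coding length unless any model is stated, and all 16 genes matched. Identity is over the shorter protein after global alignment. Python 3.11.15, NumPy 2.4.6, pandas 2.3.3, matplotlib 3.10.9, and Biopython 1.88 were used.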

Additional observations from a re-analysis of the deposited data

Results flagged for a closer look

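Both *XYP1* and *GLTP2* differed in opposite directions when a mutation was set against WT and when it was set against the other single mutant, by at least 1.5-fold each way. The *upf1-5* mutation gave 0.570-fold the level of *XYP1* (AT5G64080) when added to *upf3-1*, and 2.47-fold when set against WT. The *upf3-1* mutation gave 0.451-fold when added to *upf1-5*, and 1.95-fold against WT. For *GLTP2*, the *upf1-5* mutation gave 2.95-fold when added to *upf3-1*, and 0.498-fold against WT, while the *upf3-1* mutation gave 3.27-fold when added to *upf1-5*, and 0.553-fold against WT. With 1 library for each genotype the difference was not tested, and the pairs share the double mutant library. *GLTP2* lay between 1.81 and 5.94 FPKM, near the lower limit of the threshold, whereas *XYP1* lay between 17.8 and 43.9 FPKM.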

How the results depend on the processing

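Of 141 folds of named genes under other scalings or a pseudocount of 1, 135 stayed within 1.5 times of the main value. The pseudocount lowered the other 6, *AT4G39670* to 2.23, 5.04, and 5.95 in *upf1-5*, *upf3-1*, and the double mutant, *LTP3* to 6.07 in *upf3-1* and 7.13 in the double mutant, and *LTP11* to 1.60 in the double mutant. Among the 135, scaling to the same 75th percentile moved 2 folds in *upf3-1* across 1. These were *LTP2*, from 0.983 to 1.02, and *GLTP1*, from 0.990 to 1.03. Requiring 1 FPKM in both libraries left 4, 3, and 4 up-regulated genes in *upf1-5*, *upf3-1*, and the double mutant and ended the calls of *AT4G39670* and *LTP11*, whose WT values lie below it. A fold of 4 left 1 up-regulated gene in *upf1-5* and 0 down-regulated genes in any mutant, and a fold of 1.5 gave 3 down-regulated genes in *upf1-5*, 4 in *upf3-1* plants, and 4 in the double mutant. Scaling to the same 75th percentile left 0 genes down-regulated in *upf1-5* and turned the *upf3-1* median to 0.0434. It also gave 5 up-regulated genes in *upf3-1*, as *XYP1* went from 1.95- to 2.03-fold there. Without the glycolipid transfer proteins, 0 genes were down-regulated in *upf1-5*, and the medians of *upf1-5*, *upf3-1*, and the double mutant became 0.24, 0.23, and 0.26. With the genes of seed storage wording included, 10, 19, and 19 were up-regulated and 2, 12, and 10 down-regulated in these mutants, and the medians became 0.48, 0.24, and 0.37. The sign of the median in the single mutants therefore depends on membership. The summed FPKM of the family stayed below WT in all 3 mutants under both scalings and without *LTP1*, between 0.619 and 0.801 of WT, but was above WT in all 3 without *LTP1* and *LTP5*. No paired analysis was possible because each genotype has 1 library, and no library can be left out. Unknown depth limits the values near 1 FPKM most, which here are those of *LTP3* and *AT4G39670* in WT and of *LTP11* throughout.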
